A study of Mus musculus with 6 samples.

Results

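Receptors of natural killer (NK) cells and myeloid cells often cannot signal alone and borrow small membrane adaptors, and 8 genes of this system were followed in dendritic epidermal T cells (DETC), the γδ T cells that reside in mouse epidermis. The genes were chosen by name: the adaptors Tyrobp (protein DAP12), Hcst (DAP10) and Fcer1g (FcR gamma chain), the kinase Syk, and the receptors Ncr1, Fcgr3, Trem2 and Cd300a. They are 8 of 20300 genes with a probe set on the Clariom S Mouse array, and each had 1 probe set, whose values no other gene shared. Gene expression was measured on 6 arrays of DETC sorted from the epidermis of back and belly of 2-week-old mice of both sexes. The mice were of the strain B6.129-Ahrtm1Bra/J, and a knockout allele of the aryl hydrocarbon receptor gene Ahr was present in both groups: 3 arrays held DETC of homozygous mice (Ahr-ko) and 3 held DETC of heterozygous littermates (Ahr-het), so that no array held cells with 2 intact copies of Ahr. The allele was carried by the whole animal, and every array carried pooled RNA of 2 or 3 mice, of which 10 ng was labelled. Cells were gated on the γδ T cell receptor (TCR) and its Vγ3 chain, with Fc receptors blocked by an antibody during staining, and were 90 to 98% pure after the sort. The share of DETC among live epidermal cells was 2 to 4% in Ahr-ko and 10 to 15% in Ahr-het mice.

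DAP12 and the FcR gamma chain carry an immunoreceptor tyrosine-based activation motif (ITAM), which recruits the kinases SYK and ZAP70 once it is phosphorylated by kinases of the SRC family. DAP10 carries a different motif, which recruits phosphoinositide 3-kinase and the adaptor GRB2. NKG2D, the stress receptor of DETC and NK cells, pairs with DAP10 and in mice also with DAP12, so that the adaptors that a cell holds set which receptors reach its surface and which signals they start. DAP12 is best known from NK cells, macrophages, microglia and osteoclasts, and the FcR gamma chain from mast cells and macrophages, where it serves the receptors for IgE and IgG. T cells signal mainly through the ITAMs of the CD3 complex, whose genes were therefore set beside the adaptors. The targeted gene Ahr encodes a transcription factor that binds DNA at a core of GCGTG together with its partner ARNT.

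Of the 8 genes, 3 differed between the genotypes. Tyrobp was 6.0-fold higher in Ahr-ko DETC, and Fcgr3 was lower in Ahr-ko DETC (1.51-fold higher in Ahr-het). Ncr1 was higher in Ahr-ko DETC, with a mean 1.53-fold above the background limit of the Ahr-het arrays. All 3 passed limma with Benjamini-Hochberg adjustment over all genes and a threshold of 0.05. Of the 20300 genes 3.14% passed this test, 1.58% as higher and 1.57% as lower in Ahr-ko (7.58% in all with the replicate number as a block). Hcst, Fcer1g, Syk, Trem2 and Cd300a did not pass. When 1 array was left out, 1 to 3 of the 8 genes were called, and Tyrobp was always among them. In level, 6 of the 8 genes were above a limit for background signal on every array. The Ahr-ko and Ahr-het arrays did not overlap for 4 of the 8 genes, against 18.7% of all genes. In 3 of them the Ahr-ko arrays were higher, as in 9.76% of all genes, and in 1 they were lower, as in 8.91%. The median log2 fold change of the 8 genes was 0.13, beside 0.0038 for all genes tested. The 8 genes were chosen with earlier results of these data known, so these shares are a description and no test. Because the RNA is that of a sorted population, fewer cells of a type and less RNA per cell cannot be told apart. The p-values set the difference between genotypes against the spread among pools of the same genotype, not among single mice.

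**Figure D1:**
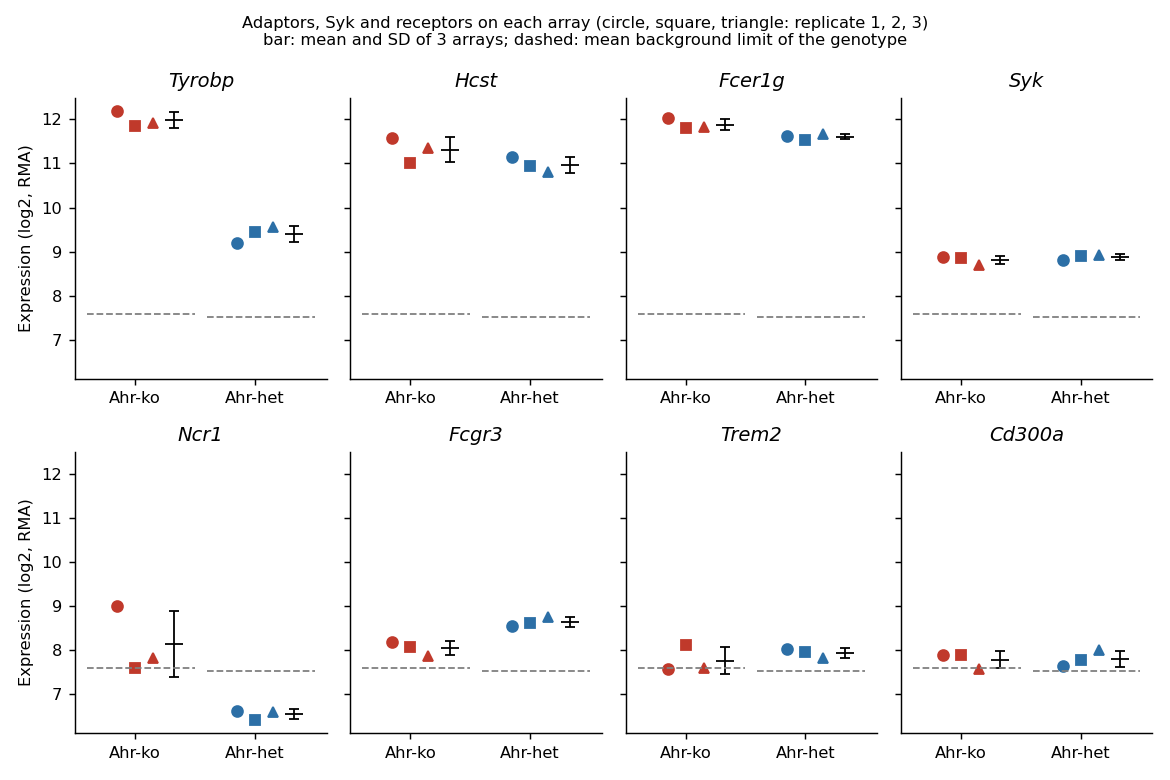
Log2 expression of the 8 genes on each array, Ahr-ko on the left and Ahr-het on the right of each panel, with the mean and SD of 3 arrays beside the points and the background limit as a dashed line. The 3 Ahr-ko arrays of Tyrobp lie between 11.84 and 12.20 and its 3 Ahr-het arrays between 9.21 and 9.56, whereas the points of Hcst, Syk, Trem2 and Cd300a overlap.

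To show the sequences in front of these genes, the promoters of RefSeq (GRCm38.p6) were searched for the core of the AHR binding element, GCGTG or CACGC on the other strand, in the 250 bases before each annotated start. Promoters were matched for 7 of the 8 genes, all but Tyrobp. The core was found for Fcgr3, Fcer1g, Syk and Trem2, which is 4 of 7, and not for Hcst, Ncr1 and Cd300a. Of the 27025 genes with a RefSeq promoter, 30.9% held it, and a match of 5 letters is a description of the sequence, not a binding site. The 4 stretches are printed with the core in capitals, each on the strand of its gene.
Fcgr3: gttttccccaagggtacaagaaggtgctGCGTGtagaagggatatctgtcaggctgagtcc
Fcer1g: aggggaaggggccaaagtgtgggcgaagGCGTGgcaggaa
Syk: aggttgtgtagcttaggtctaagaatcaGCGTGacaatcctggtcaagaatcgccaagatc
Trem2: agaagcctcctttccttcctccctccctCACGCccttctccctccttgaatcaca
The stretch of Fcgr3 lies at chr1:171059492-171059552 on the minus strand, with its core 121 and 130 bases before the annotated starts. That of Fcer1g lies at chr1:171234350-171234389 on the minus strand, with its core 12 bases before the start. The stretch of Syk lies at chr13:52596665-52596725 on the plus strand, 189 bases before the start that is farther along the chromosome, and the other start of Syk had no match. In Trem2, at chr17:48346346-48346400 on the plus strand, the core reads in reverse and is 27 bases before the start. Among these genes, Fcgr3 was lower in Ahr-ko and the other 3 did not pass the test, while Ncr1, without a match, was higher.

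Tyrobp (gene ID 22177, probe set on chromosome 7) encodes DAP12, the ITAM adaptor of many activating receptors. Its log2 expression was 12.20, 11.84 and 11.93 on the Ahr-ko arrays and 9.21, 9.45 and 9.56 on the Ahr-het arrays. All Ahr-ko arrays were high and all Ahr-het arrays low, with a gap of 2.28 between the groups. The means were 11.99 ± 0.19 in Ahr-ko and 9.40 ± 0.18 in Ahr-het DETC (SD, n = 3 each), and the log2 fold change was 2.58 (standard error 0.14, 95% interval 2.26 to 2.90, adjusted p = 3.79e-05 by limma). In linear terms this is 6.0-fold, with an interval of 4.80 to 7.49. Of the 20300 genes, 29 had a higher log2 fold change. A background limit was set on each array as the level that 95% of 1391 odorant and vomeronasal receptor genes did not exceed, since these are not transcribed in T cells. Tyrobp was above this limit by 4.40 ± 0.23 in Ahr-ko and by 1.88 ± 0.12 in Ahr-het DETC, so that it was measured on all 6 arrays. None of the 6 fits that leave out 1 array ended the call (log2 fold change 2.48 to 2.66).

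Hcst (gene ID 23900, chromosome 7) encodes DAP10, the adaptor that links NKG2D to phosphoinositide 3-kinase. It had 11.58, 11.01 and 11.34 (log2) on the Ahr-ko arrays and 11.16, 10.95 and 10.80 on the Ahr-het arrays. The groups overlapped, since Ahr-ko replicate 2 lay below Ahr-het replicate 1. The means were 11.31 ± 0.29 in Ahr-ko and 10.97 ± 0.18 in Ahr-het DETC (SD, n = 3 each), and the log2 fold change was 0.34 (standard error 0.16, 95% interval -0.04 to 0.72, adjusted p = 0.446 by limma). The interval thus reaches from 0.974-fold to 1.64-fold, which lies below the interval of Tyrobp over its whole length.

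Fcer1g (gene ID 14127, chromosome 1) encodes the FcR gamma chain, the ITAM adaptor of the activating Fc receptors and of NKp46. Its values were 12.02, 11.79 and 11.83 (log2) on the Ahr-ko arrays and 11.63, 11.54 and 11.66 on the Ahr-het arrays. The lowest Ahr-ko array was still above the highest Ahr-het array, but the gap was only 0.14. The means were 11.88 ± 0.12 in Ahr-ko and 11.61 ± 0.065 in Ahr-het DETC (SD, n = 3 each), and the log2 difference of 0.27 (standard error 0.11, 95% interval 0.023 to 0.52) did not pass the test (adjusted p = 0.327 by limma). Hcst and Fcer1g were both far above the background limit on all 6 arrays, by 3.72 ± 0.33 and 4.29 ± 0.16 in Ahr-ko and by 3.45 ± 0.23 and 4.09 ± 0.093 in Ahr-het DETC.

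Syk (gene ID 20963, chromosome 13) encodes the kinase that docks to phosphorylated ITAMs. It had 8.88, 8.86 and 8.71 (log2) on the Ahr-ko arrays and 8.81, 8.91 and 8.93 on the Ahr-het arrays. The groups overlapped. The log2 fold change was -0.068 (standard error 0.10, 95% interval -0.31 to 0.17, adjusted p = 0.866 by limma). Syk was above the background limit on every array, by 1.23 ± 0.11 in Ahr-ko and 1.36 ± 0.0087 in Ahr-het DETC (SD, n = 3 each).

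Ncr1 (gene ID 17086, chromosome 7) encodes NKp46, an activating receptor of NK cells and innate lymphoid cells that signals through the FcR gamma and CD3 zeta chains. Its values were 8.99, 7.59 and 7.83 (log2) on the Ahr-ko arrays and 6.63, 6.42 and 6.59 on the Ahr-het arrays. Ahr-ko replicate 1 stood above the other two Ahr-ko arrays, and the groups did not overlap. Ncr1 passed the background limit on 2 of 3 Ahr-ko arrays and on 0 of 3 Ahr-het arrays. With only a bound in Ahr-het DETC, the mean of the Ahr-ko arrays was set against the mean background limit of the Ahr-het arrays, which gave 1.53-fold. This is no strict lower bound, since Ahr-ko replicate 2 (7.59) was below its own limit of 7.63 and replicate 1 raised the mean. The fitted log2 fold change was 1.59 with a standard error of 0.32 (adjusted p = 0.0382 by limma). The means were 8.14 ± 0.75 in Ahr-ko and 6.55 ± 0.11 in Ahr-het DETC (SD, n = 3 each). The call ended in 4 of the 6 fits that leave out 1 array, those without any one of the Ahr-het arrays or without Ahr-ko replicate 3 (adjusted p 0.0634 to 0.16). Without Ahr-ko replicate 1 the fitted log2 fold change was 1.17 and the adjusted p was 0.00271 by limma.

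Fcgr3 (gene ID 14131, chromosome 1) encodes the low-affinity IgG receptor CD16, which needs the FcR gamma chain to reach the surface. It had 8.19, 8.07 and 7.87 (log2) on the Ahr-ko arrays and 8.55, 8.61 and 8.76 on the Ahr-het arrays. All Ahr-ko arrays were below all Ahr-het arrays, with a gap of 0.36. The means were 8.04 ± 0.16 in Ahr-ko and 8.64 ± 0.11 in Ahr-het DETC (SD, n = 3 each), and the log2 fold change was -0.60 (standard error 0.12, 95% interval -0.88 to -0.32, adjusted p = 0.04 by limma). The call ended in 5 of the 6 fits that leave out 1 array, all but that without Ahr-ko replicate 1 (log2 fold change -0.67 to -0.51, adjusted p 0.031 to 0.173). Fcgr3 was above the background limit on all 6 arrays, by 0.46 ± 0.18 in Ahr-ko and 1.12 ± 0.068 in Ahr-het DETC. A stricter limit, at 99% of the odorant and vomeronasal receptor genes, was passed on 0 of 3 Ahr-ko and 3 of 3 Ahr-het arrays. Fcgr3 is close in sequence to Fcgr2b, and whether probes of the array bind both transcripts was not tested, so the value of each is uncertain.

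Trem2 (gene ID 83433, chromosome 17), a DAP12-dependent lipid receptor of macrophages and microglia, had 7.58, 8.11 and 7.61 (log2) on the Ahr-ko arrays and 8.02, 7.97 and 7.82 on the Ahr-het arrays. The groups overlapped, and the log2 fold change was -0.17 (standard error 0.16, 95% interval -0.53 to 0.19, adjusted p = 0.751 by limma). All 6 arrays were just above the background limit, by 0.18 ± 0.26 in Ahr-ko and 0.41 ± 0.15 in Ahr-het DETC. None of them passed the stricter limit at 99% of the receptor genes. Cd300a (gene ID 217303, chromosome 11) encodes an inhibitory receptor for phosphatidylserine and phosphatidylethanolamine, which acts through its own cytoplasmic motifs and needs no adaptor. It had 7.89, 7.90 and 7.57 (log2) on the Ahr-ko arrays and 7.64, 7.77 and 8.00 on the Ahr-het arrays, again overlapping. Its log2 fold change was -0.022 (standard error 0.14, 95% interval -0.34 to 0.30, adjusted p = 0.973 by limma), and its sign turned without Ahr-ko replicate 3 or without Ahr-het replicate 3. Cd300a passed the background limit on 2 of 3 Ahr-ko and 3 of 3 Ahr-het arrays, but passed the stricter limit on none.

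**Figure D2:**
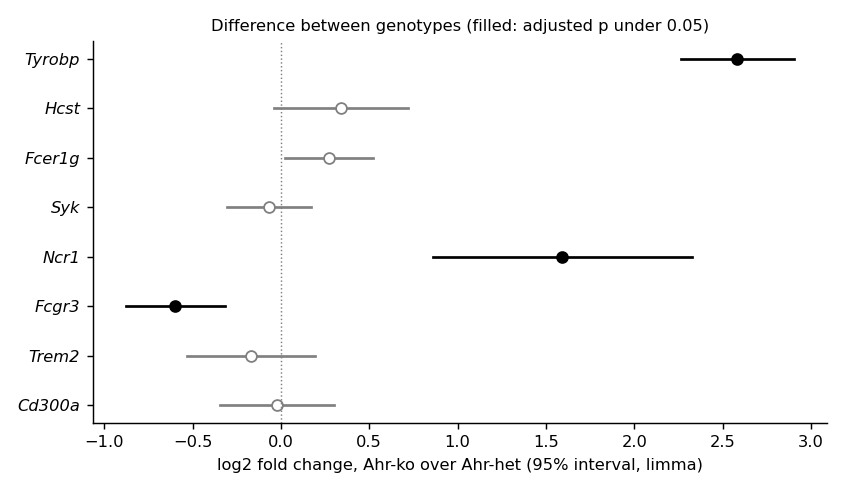
Log2 fold change between genotypes (Ahr-ko over Ahr-het) for the 8 genes (points) with the 95% interval of limma (lines), filled where the adjusted p was under 0.05. Tyrobp at 2.58, Ncr1 at 1.59 and Fcgr3 at -0.60 are filled, and the fitted value of Ncr1 rests on Ahr-het arrays below the background limit.

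Whether Tyrobp changed apart from the other genes was tested by its difference from each of them within the same array, in which the brightness of the probe sets cancels between genotypes. Tyrobp minus Hcst was 0.62, 0.83 and 0.59 (log2) on the Ahr-ko arrays and -1.95, -1.50 and -1.24 on the Ahr-het arrays. The difference between the genotypes was 2.24 (standard error 0.22). Relative to the DAP10 gene next to it, the DAP12 gene was thus higher on every Ahr-ko array than on any Ahr-het array. Tyrobp minus Fcer1g was 0.17, 0.044 and 0.10 on the Ahr-ko arrays and -2.43, -2.09 and -2.10 on the Ahr-het arrays. Here the genotypes differed by 2.31 (standard error 0.12). For both adaptors the exact two-sided permutation test over the 6 arrays gave p = 0.1, the smallest that 3 arrays against 3 allow.

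The other 5 genes were compared in the same way. The rise of Tyrobp in Ahr-ko exceeded the change of Syk by 2.65 (standard error 0.12), of Cd300a by 2.61 (0.14), of Trem2 by 2.75 (0.31) and of Fcgr3 by 3.18 (0.10) on the log2 scale. For Ncr1, which was below the background limit on all 3 Ahr-het arrays and passed it on 2 of 3 Ahr-ko arrays, the size of such a difference could not be measured. The values of Tyrobp alone lie 2.28 apart between the genotypes and enter all 7 pairs, so the lack of overlap between the genotypes in all 7 pairs was largely set by Tyrobp. The exact permutation p was 0.1 for each pair, and 0.1 after adjustment over the 7 pairs.

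**Figure D3:**
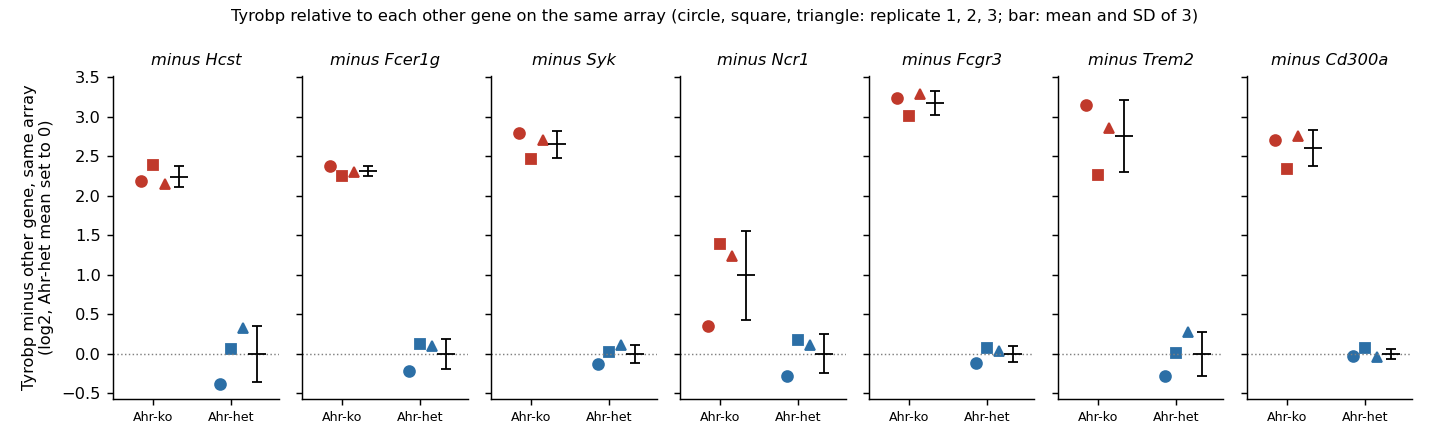
Log2 expression of Tyrobp minus that of each other gene on the same array, with the mean of the Ahr-het arrays set to 0, Ahr-ko on the left and Ahr-het on the right, and bars for the mean and SD of 3 arrays. The Ahr-ko arrays lie 2.24 to 3.18 above the Ahr-het arrays on average in the panels other than that of Ncr1, whose values rest on Ahr-het arrays below the background limit.

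The other parts of the pathway were described through lists of genes by role, in which 101 further genes were named and 85 were tested. Of these, 5 were higher and 3 lower in Ahr-ko DETC and 77 did not pass the test. This is a share of 9.41% called against 3.14% of all genes. With the replicate number as a block 7 were higher and 6 lower, and 7.58% of all genes were called in that fit. The lists were chosen with earlier results of these data known, so these shares are a description and no test. The median log2 fold change of the 85 genes was 0.019. In level, 49 of the 85 were above the background limit on every array and 28 were below it on every array. On single arrays 57.4 to 60.2% of all genes were above it.

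Of the 6 ITAM adaptors of the antigen receptors, 0 were higher and 0 lower by limma, and Cd3e alone had an unadjusted p under 0.05 (log2 fold change -0.30, adjusted p = 0.236), as 13.2% of all genes did. Cd3g, a chain of the CD3 complex that carries the TCR signal, had 13.50, 13.49 and 13.42 (log2) on the Ahr-ko arrays and 13.69, 13.52 and 13.65 on the Ahr-het arrays. Its log2 fold change was -0.15 (adjusted p = 0.617 by limma). Cd3d, another CD3 chain, had a log2 fold change of -0.05 (adjusted p = 0.911), and the list ranged from -0.30 to -0.042. Cd79a and Cd79b, the adaptors of the B cell receptor, did not pass the background limit on every array of either genotype.

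Among the receptors that use DAP12 or DAP10, 1 of 17 tested genes was higher in Ahr-ko and 0 were lower (1 lower at an unadjusted p under 0.05). The higher one was Pilrb1, an activating receptor that pairs with DAP12, with 11.22, 10.95 and 11.05 (log2) on the Ahr-ko arrays and 10.15, 10.21 and 10.29 on the Ahr-het arrays. The groups did not overlap, and the log2 fold change was 0.86 (standard error 0.11, adjusted p = 0.00421 by limma). Klrk1, which encodes NKG2D, had 11.88, 11.40 and 11.36 on the Ahr-ko arrays and 11.48, 10.82 and 11.04 on the Ahr-het arrays. Replicate 1 was the brightest of its genotype in both groups, which overlapped. The log2 fold change of Klrk1 was 0.43, with an adjusted p of 0.42 by limma and of 0.0393 once the replicate number was a block. Of the 17 genes 8 were above the background limit on every array and 8 below it on every array, the myeloid receptors Trem1, Clec5a and Cd300ld among the last.

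Among the receptors that use the FcR gamma chain, 1 of 14 tested genes was higher and 1 lower in Ahr-ko, and these were Ncr1 and Fcgr3. Klrb1c, the NK1.1 receptor of NK cells, had 10.51, 9.41 and 9.84 (log2) on the Ahr-ko arrays and 11.34, 10.39 and 10.51 on the Ahr-het arrays. Within each replicate number the Ahr-ko array was the lower one. The log2 fold change of Klrb1c was -0.83, with an adjusted p of 0.308 by limma and of 0.00169 once the replicate number was a block. The IgE receptor genes Fcer1a and Ms4a2 and the IgG receptor gene Fcgr4 were below the background limit on all 6 arrays, while Fcgr1, the high-affinity IgG receptor, was above it on all 6 with a log2 fold change of -0.04 (adjusted p = 0.948).

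Of 27 kinases and scaffolds that act behind ITAM adaptors, 2 were higher and 1 was lower in Ahr-ko DETC. Fgr, a kinase of the SRC family found in myeloid cells and NK cells, had 8.89, 7.84 and 8.46 (log2) on the Ahr-ko arrays and 6.26, 6.23 and 5.94 on the Ahr-het arrays. It was above the background limit on 3 of 3 Ahr-ko arrays and 0 of 3 Ahr-het arrays, and so at least 1.83-fold higher in Ahr-ko (adjusted p = 0.00155 by limma). Src, the founding member of that kinase family, had 8.41, 8.49 and 8.36 on the Ahr-ko arrays and 9.28, 9.19 and 9.32 on the Ahr-het arrays, with a log2 difference of -0.84 (standard error 0.10, adjusted p = 0.00254 by limma). The 2 SRC family genes thus changed in opposite directions, each without overlap. Plcg2, the phospholipase that follows SYK in B cells and NK cells, was above the background limit on 3 of 3 Ahr-ko and 1 of 3 Ahr-het arrays and had a log2 fold change of 0.72 (adjusted p = 0.0417 by limma), a call that ended in all 6 fits leaving out 1 array. Zap70, the SYK relative that T cells use, had a log2 fold change of 0.01 (adjusted p = 0.985 by limma).

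The inhibitory side was covered by 18 tested receptors with inhibitory motifs and phosphatases, of which 1 was higher and 2 were lower in Ahr-ko DETC (2 higher and 4 lower with the replicate number as a block). Fcgr2b, the inhibitory IgG receptor, had 8.00, 7.89 and 7.88 (log2) on the Ahr-ko arrays and 8.90, 9.25 and 9.23 on the Ahr-het arrays, with a log2 difference of -1.21 (standard error 0.12, adjusted p = 0.00127 by limma). It was lower in Ahr-ko together with Fcgr3, and the values of both carry the uncertainty about shared probes. Fcgr2b was above the background limit by 0.34 ± 0.10 in Ahr-ko and 1.61 ± 0.14 in Ahr-het DETC (SD, n = 3 each). The stricter limit was passed on 0 of 3 Ahr-ko and 3 of 3 Ahr-het arrays. Cd72, an inhibitory lectin receptor, had 9.38, 9.30 and 9.44 on the Ahr-ko arrays and 10.05, 10.33 and 10.32 on the Ahr-het arrays, a log2 fold change of -0.86 (adjusted p = 0.00513 by limma). Neither call ended when 1 array was left out. Lair1, a collagen receptor, passed the test (adjusted p = 0.0334 by limma), but it was below the background limit on all 6 arrays, so no fold is given, and its call ended in all 6 fits leaving out 1 array.

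The calls that the block added to the inhibitory list fell on genes in which replicate 1 was the highest array of both genotypes. Ptpn6, the phosphatase SHP-1, had 11.87, 10.97 and 11.30 (log2) on the Ahr-ko arrays and 12.38, 11.76 and 11.73 on the Ahr-het arrays. Its log2 fold change was -0.57, with an adjusted p of 0.389 by limma and of 0.0151 with the block. Ptpn11, the phosphatase SHP-2, had 9.79, 9.54 and 9.64 on the Ahr-ko arrays and 10.71, 10.10 and 10.09 on the Ahr-het arrays. The Ahr-ko arrays of Ptpn11 were all below the Ahr-het arrays, with a log2 fold change of -0.65 and an adjusted p of 0.126 by limma and 0.0115 with the block. Lilrb4a, an inhibitory receptor of myeloid cells and some lymphocytes, had 8.13, 6.02 and 5.96 on the Ahr-ko arrays and 6.89, 5.61 and 5.55 on the Ahr-het arrays. Only Ahr-ko replicate 1 passed the background limit, so the log2 fold change of 0.69 (adjusted p = 0.722 by limma, 0.0398 with the block) rests mostly on arrays at background.

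Of 8 tested genes in the list of ligands, 1 was higher in Ahr-ko DETC. Anxa1, which encodes annexin A1, a phospholipid-binding protein, had 10.93, 10.26 and 10.60 (log2) on the Ahr-ko arrays and 7.73, 8.26 and 7.98 on the Ahr-het arrays. The log2 fold change was 2.61 (standard error 0.20, adjusted p = 2.27e-04 by limma) and no fit without 1 array ended the call. Ulbp1, a stress ligand of NKG2D, had a log2 fold change of 0.15 (adjusted p = 0.771 by limma), and Apoe, a lipid carrier that binds TREM2, of -0.20 (adjusted p = 0.674).

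**Figure D4:**
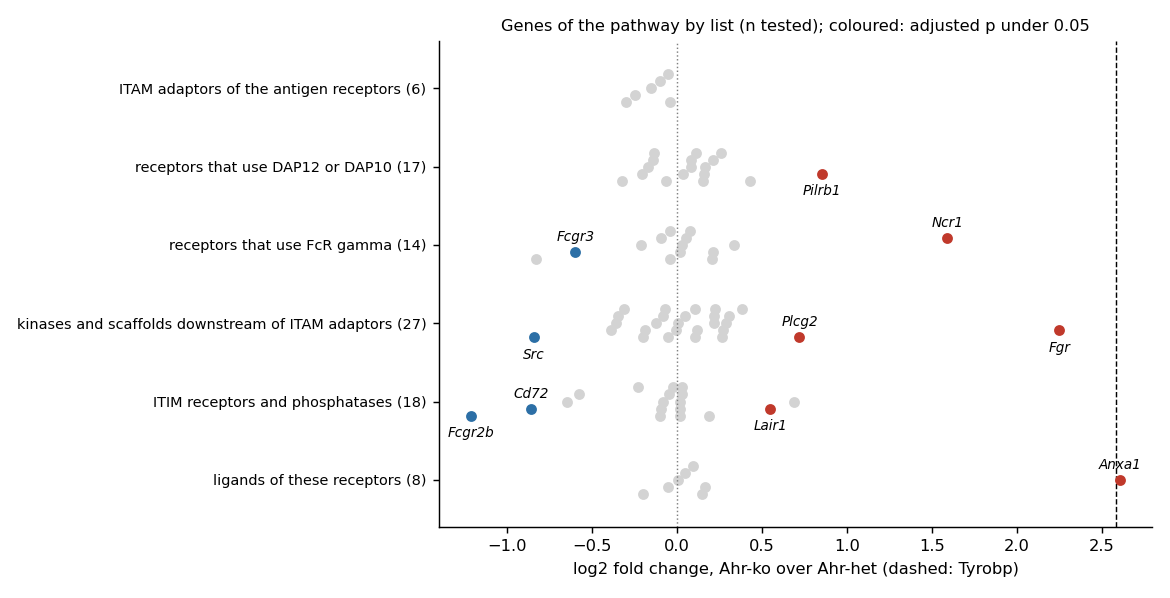
Log2 fold change between genotypes (Ahr-ko over Ahr-het) for every tested gene of the pathway, 1 row for each list with the number tested in brackets, in red for genes higher and in blue for genes lower in Ahr-ko at an adjusted p under 0.05 (limma), and with a dashed line at Tyrobp (2.58). Anxa1 at 2.61 and Fgr at 2.25 lie closest to Tyrobp, the antigen receptor adaptors lie between -0.30 and -0.042, and Lair1 is drawn although it was below the background limit on every array.

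On chromosome 7 Tyrobp and Hcst are neighbours in the RefSeq gene table, so the tested genes on both sides were compared as well. Of the 3 nearest genes on each side, 0 of 6 passed the test with limma, and 1 (Aplp1) had an unadjusted p under 0.05. On the side away from Hcst the log2 fold changes were -0.032 for Lrfn3, -0.18 for Sdhaf1 and 0.0081 for Syne4. On the side of Hcst (0.34) they were -0.024 for Nfkbid and -0.35 for Aplp1 (adjusted p = 0.295 by limma). Aplp1 had the smallest adjusted p of the 6. Nfkbid varied most between arrays, with 11.10, 11.89 and 12.32 (log2) in Ahr-ko and 10.55, 12.50 and 12.33 in Ahr-het DETC. None of the other 5 neighbours had a log2 fold change above that of Hcst, and that of Tyrobp was 2.58.

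The genes whose pattern over the 6 arrays was most like that of Tyrobp were found by the root mean square difference between profiles, each gene centred on its own mean. The 5 nearest were Cacna1d (0.079 on the log2 scale), a calcium channel subunit, Crmp1 (0.14), a cytoskeletal regulator of neurons, Anxa1 (0.15), the kinase gene Stk26 (0.20) and Crybg1 (0.23). For comparison, the distance to Tyrobp was 1.14 for Hcst and 1.16 for Fcer1g. The measure is a description over 6 arrays in 2 groups and mainly finds genes with a like difference between the genotypes. Cacna1d, Crmp1 and Crybg1 were below the background limit on all Ahr-het arrays, unlike Tyrobp.

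The levels of other cell types were read on the same arrays, because DAP12 and the FcR gamma chain are abundant in myeloid cells and mast cells. Of 16 tested markers of Langerhans cells and macrophages, 0 differed by limma (2 at an unadjusted p under 0.05, against 13.2% of all genes, and 1, Cx3cr1, with the block) and the mean level of the list was 7.43 to 7.65 (log2) on the Ahr-ko arrays and 7.49 to 7.71 on the Ahr-het arrays, which overlap. Csf1r, Lyz2, Itgam, C1qa, C1qc, Cd14, Mrc1 and Spi1 were below the background limit on all 6 arrays, and Cd207, the marker that defines Langerhans cells, passed it on 1 of 3 Ahr-ko and 1 of 3 Ahr-het arrays. The class II genes H2-Ab1 and H2-Aa, as well as Epcam and Cx3cr1, were above it on all 6. Of 10 mast cell markers 0 differed by limma (0 at an unadjusted p under 0.05) and 7 were below the limit on all arrays (3 were above it on all), with Fcer1a, Cpa3 and Cma1 among those below, and the mean of the list was 6.46 to 6.55 in Ahr-ko and 6.41 to 6.57 in Ahr-het DETC. The neutrophil, B cell and melanocyte lists held 7, 6 and 5 tested genes and 0 called ones each (0, 0 and 1 at an unadjusted p under 0.05). Of the 16 macrophage markers 8 were at background on all 6 arrays, and 5 were above the limit on every Ahr-ko array. Of the 10 mast cell markers these numbers were 7 and 3. The part of such cells in the level of Tyrobp was not tested.

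Some markers of NK cells and of αβ T cells differed between the genotypes in the same direction as Tyrobp. Of 7 tested genes of NK cells and innate lymphoid cells 3 were higher in Ahr-ko DETC: the transcription factor gene Eomes (at least 6.54-fold, adjusted p = 1.52e-05 by limma), Ncr1 and the lectin receptor gene Klri2 (log2 fold change 0.78, a call that ended in 5 of the 6 fits leaving out 1 array). By limma 0 were lower, but 2 were lower with the block, Klrb1c (log2 fold change -0.83, adjusted p = 0.00169) and the lectin receptor gene Klri1 (-0.59, adjusted p = 0.0144). Both had an unadjusted p under 0.05 without the block. Klri1 passed the background limit on 0 of 3 Ahr-ko and 2 of 3 Ahr-het arrays, so its fitted value rests largely on arrays at background. The mean level of the list without Ncr1 was 8.33, 8.15 and 7.98 (log2) on the Ahr-ko arrays and 7.73, 7.65 and 7.60 on the Ahr-het arrays. This difference came mostly from Eomes, whose log2 fold change was 3.46. That of Klra9 was 0.20 and that of Khdc1a -0.085, and neither passed the test. Both were below the background limit on all 6 arrays, so a change in them could not be measured. Klrb1c, above the limit on all 6 arrays, had a negative log2 fold change. The higher mean is therefore not a rise shared by all measured genes of the list. Replicate 1 had the highest mean of this list in both genotypes, as it had for the DETC markers, and the other two Ahr-ko arrays stood in the opposite order for Ncr1. Several genes of the list, such as Klrb1c, can also be expressed by γδ T cells. Of 6 tested αβ T cell genes Cd6 (log2 fold change 1.91), Cd8a (1.67) and Cd8b1 (0.68) were higher and Themis (-0.61) was lower. Cd4 (-0.35) and Cd5 (-0.35) did not pass the test, and Cd5 had an unadjusted p of 0.0369 by limma. The TCR genes Trac, Trbc1 and Trbc2 of this list were not among the tested genes. Leaving out 1 array ended the calls of Cd8b1 and Themis in 5 of 6 fits each and those of Cd6 and Cd8a in 2 of 6 each. The list had a mean of 9.07 to 9.13 in Ahr-ko and 8.59 to 8.66 in Ahr-het DETC. This higher mean came from Cd6, Cd8a and Cd8b1, and here too it is not a rise shared by the list. The part of NK cells and αβ T cells in the differences of Tyrobp, Ncr1 and Fgr was not tested.

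**Figure D5:**
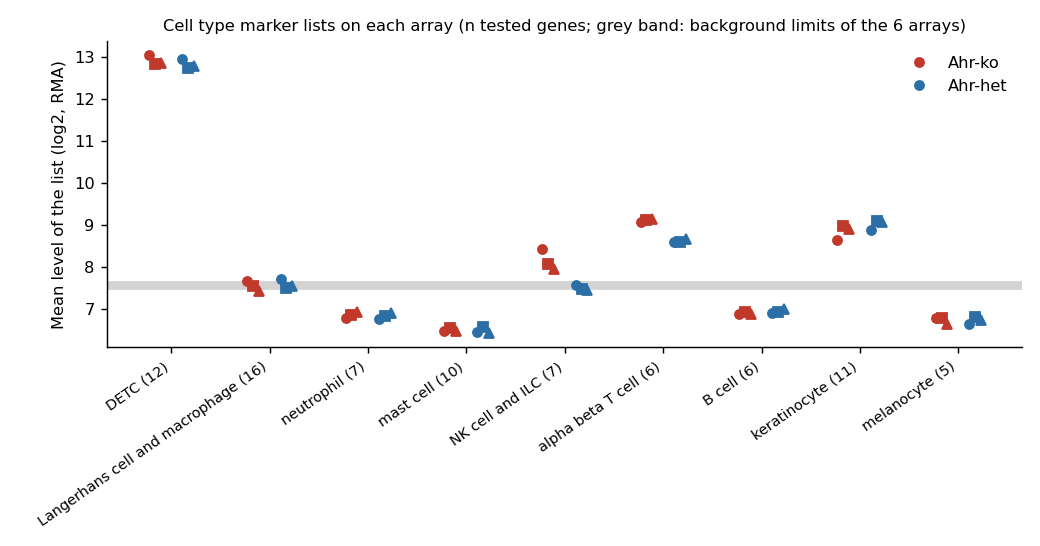
Mean log2 expression of each list of cell type markers on each array, red for Ahr-ko and blue for Ahr-het with the symbols giving the replicate number, and a grey band for the background limits of the 6 arrays. The lists of NK cells (7.96 to 8.42 in Ahr-ko, 7.46 to 7.58 in Ahr-het) and of αβ T cells stand apart between the genotypes, whereas those of macrophages, neutrophils and mast cells overlap. The NK cell list includes Ncr1 and leans on Eomes (log2 fold change 3.46), while Khdc1a, Klri1 and Klrb1c in it have negative log2 fold changes. Khdc1a was below the background limit on every array and Klri1 on every Ahr-ko array. In the αβ T cell list Cd6, Cd8a and Cd8b1 were higher, while Cd4, Cd5 and Themis have negative log2 fold changes.

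The levels of 12 tested markers of DETC were read as well, among them Itgae, Il2rb and the CD3 genes. Trdc, the γδ TCR gene of the list, was not among the tested genes, and the CD3 genes serve T cells in general. The list therefore does not set DETC apart from other T cells. All 12 tested markers were above the background limit on all 6 arrays, with a list mean of 12.83 to 13.05 (log2) in Ahr-ko and 12.75 to 12.96 in Ahr-het DETC. Ptprc (CD45) was the only one to pass the test without the block, with a log2 fold change of 0.47 (adjusted p = 0.0437 by limma), a call that ended in all 6 fits leaving out 1 array. With the block 3 were higher, Ptprc, Cd2 (adjusted p = 0.0363) and Klrk1 (0.0393). Of 11 keratinocyte markers Dsp was lower in Ahr-ko (log2 fold change -1.22, adjusted p = 0.00241 by limma) and 10 did not pass. In level, 9 of the 11 were above the background limit on every array and 1 was below it on every array. Keratinocyte transcripts were thus measured in both genotypes. Ahr itself had 10.00, 10.40 and 10.39 (log2) on the Ahr-ko arrays and 10.77, 10.62 and 10.72 on the Ahr-het arrays, with a log2 difference of -0.44 (standard error 0.13, adjusted p = 0.177 by limma). Where its probes lie in relation to the deleted part of the gene is not given in the sources used here, so these values do not check the genotype labels.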

How the data were processed

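The authors normalized the 6 arrays together by Robust Multichip Average (RMA) and deposited log2 expression values for 29129 probe sets. Neither the RMA version nor the array's genome build is given in the sources used here. The deposited comparison table with the authors' fold changes, p-values and limma scores (limma 3.38.3 in the submitters' processing notes) was used only to pair probe sets with gene IDs. Probe sets that name no gene ID (8694) were not tested, and the brightest stood for each of 86 genes with several. This left 20300 genes, of which 20199 were found in RefSeq (GRCm38.p6). Groups follow the sample labels, although the paper describes mice without the knockout.

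Ahr-ko and Ahr-het arrays were compared in R 4.3.3 by limma 3.58.1 (lmFit, eBayes), with Benjamini-Hochberg adjustment over the 20300 genes and a threshold of 0.05. Levels of different probe sets were not compared. The background limit was 7.55 to 7.63 (log2) on the Ahr-ko and 7.46 to 7.56 on the Ahr-het arrays, and precision is limited by having 3 arrays a genotype. A gene below its limit on every array of a group has only a bound there. A lower bound of the fold was then given for Ncr1, Fgr and Eomes. For Ncr1 this bound is not strict. Fitted log2 fold changes printed for these genes and for Klri1, Klra9, Khdc1a and Lilrb4a rest at least partly on arrays at background. The code for the test was checked on simulated arrays.

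The 8 genes and all lists were chosen with earlier results of these data known. Named are the 8 genes, up to 4 called genes of each list or 2 of high level where none was called, the 3 tested neighbours of Tyrobp on each side and the 5 genes of most like pattern. Genes named beyond this rule, such as Klrk1, Klrb1c, Ptpn6, Ptpn11, Lilrb4a, Zap70, Ulbp1, Apoe, Cd3e, Fcgr1 and single markers, were chosen after their values were seen.

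The labels give both genotypes the replicate numbers 1, 2 and 3. The deviations from the group means of equal-numbered arrays correlated over genes by 0.572, 0.369 and 0.207, all above 0.1. Arrays of equal number were therefore paired in an alternative fit, while the main test left the arrays unpaired. The labels do not say what a number stands for, and the unequal numbers 2 and 3 also correlated positively (0.336 and 0.236). Alternatives were the replicate number as a block, repeated quantile normalization, median centring, array weights, the mean of probe sets, all probe sets, a filter on dim genes, trended and robust variances, and leaving out arrays.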

Additional observations from a re-analysis of the deposited data

How the results depend on the processing

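The call of Tyrobp kept its direction and side of the threshold in all 15 alternatives (log2 fold change 2.38 to 2.66, adjusted p 1.19e-06 to 7.03e-04 by limma), and Hcst, Fcer1g, Syk, Trem2 and Cd300a passed the test in none. The genes that differed numbered 638, against 1538 with the replicate number as a block, 1716 with array weights, 1147 without both replicate 1 arrays and 342 to 644 leaving out 1 array. With all probe sets as one family, 1 of the 8 genes was called (Tyrobp), as Ncr1 had an adjusted p of 0.0823 and Fcgr3 of 0.0766 by limma, and 1 to 3 were called leaving out 1 array. The log2 fold change of Cd300a was -0.10 to 0.087 leaving out 1 array, with the sign turned at 0.087 without Ahr-ko replicate 3 and at 0.076 without Ahr-het replicate 3. The cause of these changes was not tested. Ncr1 did not enter the fit with the filter on dim genes, since it passed the limit on every array of neither genotype. The block changed no call of the 8 genes (adjusted p = 9.65e-06 for Tyrobp, 0.00196 for Ncr1 and 0.0196 for Fcgr3 by limma). Tyrobp minus Hcst (2.05 to 2.41) and Tyrobp minus Fcer1g (2.17 to 2.37) kept their direction in all 11 alternatives, though an exact test of 3 pairs cannot go below 0.25. With 3 arrays a genotype, and Trem2 and Cd300a close to background, small differences were not measurable.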
